A study of Mus musculus with 6 samples.

Results

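The 46 genes described here encode proteins of the G2 phase and of mitosis, the steps in which a cell that has copied its DNA prepares to divide and then parts its chromosomes. They were chosen by gene symbol, as mitotic cyclins, kinases, spindle, kinetochore and cytokinesis genes, from a table of 55631 Ensembl gene IDs, and each symbol matched exactly 1 ID. RNA was sequenced from palatal shelves of mouse embryos at stage E14.5, the paired outgrowths that make the palate. The data are 3 libraries from KO embryos, of genotype p130Cas fl/fl; CAG-Cre, and 3 from control embryos, of genotype p130Cas fl/fl without the Cre transgene. The control titles read WT, but both groups carried the loxP-flanked alleles of the p130Cas gene, so the groups differ by the presence of Cre. The CAG promoter is active in most cell types, and the libraries hold whole shelves with all their tissues. The series asks which transcripts differ when p130Cas, an adaptor protein of cell adhesion sites, is lost in embryos with a cleft palate. How many embryos or litters stand behind the libraries is not in the labels. The p-values therefore measure the spread between these 6 samples and no more, and that spread may be technical in part.

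Entry into mitosis is driven by the kinase Cdk1 bound to cyclins A and B. Further kinases then build the spindle and hold the cell until every chromosome is attached, and the ubiquitin ligase APC/C, with its activator Cdc20, ends mitosis by marking cyclin B and other proteins for destruction. Transcripts of these genes build up late in the cycle and are low in cells that have stopped dividing, where the DREAM complex holds their promoters down through an element called CHR. Growth of the palatal shelf before it lifts rests largely on dividing mesenchyme. In a whole shelf, fewer dividing cells and less RNA in each dividing cell cannot be told apart.

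FPKM values divide fragments by the length of a gene and by the fragments mapped in a library, so levels can be set beside each other between genes. Each library had between 21500 and 21869 genes above 0 FPKM, and the depth behind the values is unknown. The markers of palatal mesenchyme fixed for the tissue check, among them Osr2, Shox2 and Msx1, were all 12 above the filter of a mean of 1 FPKM and summed to 659 to 804 FPKM in KO libraries and 672 to 737 FPKM in control libraries. Bcar1, which encodes p130Cas, was at 1.69, 1.69 and 1.31 FPKM in KO replicates 1 to 3, against 1.80, 1.97 and 2.09 FPKM in control replicates 1 to 3. Its groups did not overlap, and the log2 fold change of -0.21 ± 0.11 (SE) did not pass in limma (adjusted p = 1.00). Values were for Bcar1 as a whole, with none for the deleted exons alone.

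All 46 genes were well above the filter, with no value under 4.69 FPKM in any library. Their means over the 6 libraries ran from 6.19 FPKM for Kif20b, a kinesin of late mitosis, to 83.6 FPKM for Hjurp, the chaperone that loads the centromeric histone. The median of these means was 23.8 FPKM, against 9.25 FPKM over the 14714 genes tested, which places the median member at percentile 78.0 of them. Next after Hjurp in level came Ube2c, the ubiquitin-conjugating enzyme of the APC/C, at 78.4 FPKM, and Top2a, the topoisomerase that untangles sister DNA, at 74.3 FPKM. Hjurp ranged from 73.4 to 96.0 FPKM over single libraries, so the order of these 3 genes does not stand out from their spread. Cks1b, a small subunit of Cdk complexes, followed at 69.6 FPKM, then Anp32e, a chaperone of histone H2A.Z, at 63.8 FPKM, and Cenpa, the centromeric histone itself, at 58.9 FPKM. Besides Kif20b, the lowest means were those of Cenpf, a large kinetochore protein, at 7.37 FPKM, and Ttk, the kinase Mps1 that starts the spindle checkpoint, at 8.05 FPKM. Exons of 12 of the 46 genes overlap those of another annotated gene, 10 of them a gene on the opposite strand. The strand setting of the authors' counting is not given in the sources used here, so such values are uncertain. Ube2c is one of these, and its partner Tnnc2, a muscle troponin, averaged 21.6 FPKM. Others are Cdc20 with Elovl1 at 22.2 FPKM, Ccna2 with Exosc9 at 13.6 FPKM and Cdc25b with Spef1 at 13.9 FPKM. The plot of levels by library shows every gene in its role group.

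**Figure D1:**
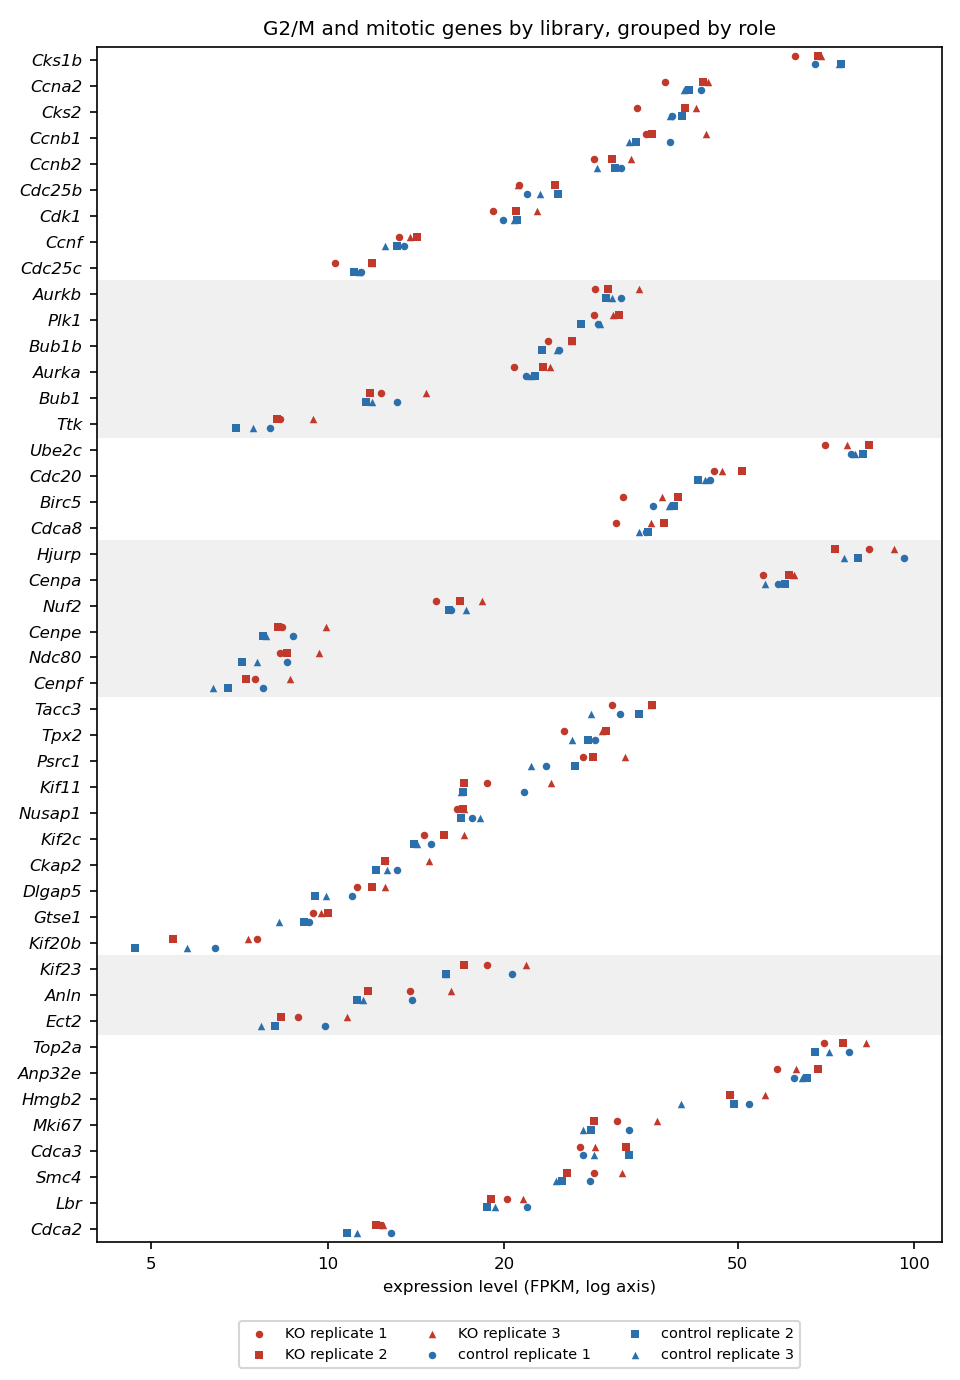
Expression level in FPKM (log axis) of the 46 genes in each library, KO in red above control in blue, with a marker shape for each replicate number and shading for role groups. Levels differ far more between genes, from a mean of 6.19 FPKM for Kif20b to 83.6 FPKM for Hjurp, than between KO and control libraries of 1 gene.

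A feature that the choice of members did not use is the sequence of their promoters. RefSeq promoter windows of 300 bases, from 250 bases before to 50 after the annotated start of transcription, were at hand for 39 of the 46 genes in 42 windows (3 genes had 2 windows each). The 7 without a window were Tpx2, Ccna2, Cdc25c, Aurkb, Dlgap5, Smc4 and Cdca2. The letters TTTGAA of the CHR element, on either strand, were found in 29 of the 42 windows, or 69.0%, against 17.9% of all 32851 windows. CCAAT, the letters bound by the factor NF-Y, were found in 34 windows, or 81.0%, against 37.4% of all windows. At least 2 copies of CCAAT were found in 24 windows, or 57.1%, against 11.7% of all. Both TTTGAA and CCAAT stood in 25 windows, or 59.5%, against 6.95% of all. The other CHR letters, TTTAAA, were found in 11 windows, or 26.2%, against 13.2%. Matches to different letters may overlap. Of the 40 TTTGAA matches in member windows, 27 began within 50 bases of the transcription start, or 67.5%, against 25.3% of 6737 matches in all windows. A site that lies in 2 overlapping windows of a gene, as in Ect2, is counted in each. These are matches of letters, not sites shown to be bound.

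The first 6 members in list order whose window holds both TTTGAA and CCAAT are shown, to let the arrangement be seen. Sequences are from RefSeq on GRCm38.p6, 5′ to 3′ on the strand of the gene, with each TTTGAA (or TTCAAA) and each CCAAT (or ATTGG) in capitals. They belong to the proliferation antigen gene Mki67, to Top2a, to the chromatin protein gene Hmgb2, and to Cdk1, Ube2c and Cks1b.
Mki67 promoter, chr7:135716330-135716629, minus strand: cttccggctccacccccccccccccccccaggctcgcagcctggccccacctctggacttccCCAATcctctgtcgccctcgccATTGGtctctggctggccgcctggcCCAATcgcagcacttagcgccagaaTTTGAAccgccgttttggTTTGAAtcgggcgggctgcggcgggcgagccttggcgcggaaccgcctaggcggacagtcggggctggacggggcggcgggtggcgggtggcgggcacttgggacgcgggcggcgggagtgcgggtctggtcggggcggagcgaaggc
Top2a promoter, chr11:99024140-99024439, minus strand: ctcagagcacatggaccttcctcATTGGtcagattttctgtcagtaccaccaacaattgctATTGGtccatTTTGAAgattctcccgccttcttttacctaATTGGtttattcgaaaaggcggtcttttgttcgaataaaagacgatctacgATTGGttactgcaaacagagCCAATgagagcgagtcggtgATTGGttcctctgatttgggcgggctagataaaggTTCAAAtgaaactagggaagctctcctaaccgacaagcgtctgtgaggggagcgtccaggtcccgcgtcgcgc
Hmgb2 promoter, chr8:57511593-57511892, plus strand: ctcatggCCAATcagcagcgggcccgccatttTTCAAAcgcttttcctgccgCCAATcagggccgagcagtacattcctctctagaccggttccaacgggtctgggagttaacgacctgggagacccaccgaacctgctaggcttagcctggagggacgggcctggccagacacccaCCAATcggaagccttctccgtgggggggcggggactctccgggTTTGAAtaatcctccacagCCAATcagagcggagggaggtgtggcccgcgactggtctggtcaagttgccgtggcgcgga
Cdk1 promoter, chr10:69352863-69353162, minus strand: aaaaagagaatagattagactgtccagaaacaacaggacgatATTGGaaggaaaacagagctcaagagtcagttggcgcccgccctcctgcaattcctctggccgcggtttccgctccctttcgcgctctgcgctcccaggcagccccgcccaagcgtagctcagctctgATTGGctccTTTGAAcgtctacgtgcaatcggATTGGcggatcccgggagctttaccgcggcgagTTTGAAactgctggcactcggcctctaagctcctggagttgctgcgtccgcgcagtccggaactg
Ube2c promoter, chr2:164769679-164769978, plus strand: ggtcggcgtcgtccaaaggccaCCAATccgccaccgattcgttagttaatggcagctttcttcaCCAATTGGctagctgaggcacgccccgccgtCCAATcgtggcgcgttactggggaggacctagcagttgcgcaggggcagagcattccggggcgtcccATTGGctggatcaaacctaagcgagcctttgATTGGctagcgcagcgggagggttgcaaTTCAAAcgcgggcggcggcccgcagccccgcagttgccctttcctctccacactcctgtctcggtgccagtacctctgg
Cks1b promoter, chr3:89418242-89418541, minus strand: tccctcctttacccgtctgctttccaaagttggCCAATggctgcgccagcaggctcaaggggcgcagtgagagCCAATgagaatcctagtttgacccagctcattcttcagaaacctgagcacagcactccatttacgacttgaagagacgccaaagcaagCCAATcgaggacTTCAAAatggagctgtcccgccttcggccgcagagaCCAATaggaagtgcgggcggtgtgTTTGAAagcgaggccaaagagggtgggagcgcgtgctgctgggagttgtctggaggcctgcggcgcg

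In 5 of these 6 windows a TTTGAA match begins within 30 bases before the RefSeq start of transcription. It is at -23 in Top2a, -30 in Hmgb2, -15 in Cdk1, -29 in Ube2c and -17 in Cks1b. Base -1 is next to the start. In Mki67 the matches begin at -116 and -98. Of these 6 genes, only Top2a has its GENCODE start at the same base, so the positions in the others depend on the annotation used. The Hmgb2 window, which ends at base 57511892, lies wholly before the GENCODE start at 57511907. Genes of DNA replication differ from mitotic genes in this feature. In 43 windows of 37 genes listed for the S phase, in which DNA is copied, TTTGAA was found in 16.3%, CCAAT in 53.5% and both in 6.98%. In 68 windows of 61 other mitotic genes, listed from general knowledge of the pathway and not among the 46, TTTGAA was found in 55.9%, CCAAT in 66.2% and both in 41.2%. The plot of element matches sets these shares side by side. The 28 genes with TTTGAA and the 11 without it each had a median log2 fold change of 0.07 between KO and control shelves.

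**Figure D2:**
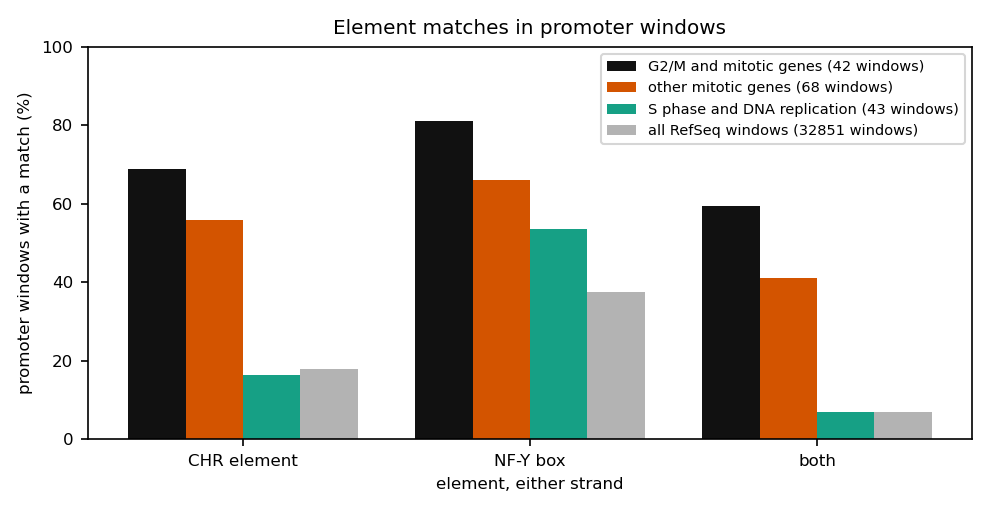
Share of promoter windows (%) with a CHR element match (TTTGAA), an NF-Y box (CCAAT) or both, on either strand. Bars are for 39 of the 46 genes, 61 other mitotic genes, 37 S phase genes and all RefSeq windows. The CHR bar of the 39 genes, at 69.0%, stands above the S phase bar at 16.3%, which is near that of all windows at 17.9%.

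No gene of the 46 differed between KO and control shelves at an adjusted p under 0.05, where limma called 0.333% of the 14714 genes tested, 0.326% higher (48 genes) and 0.0068% lower (1 gene). The adjusted p of all 46 was 1.00. At an unadjusted p under 0.05 there were 2 members, both higher in KO, against 2.09% of all genes higher and 1.92% lower. The median log2 fold change of FPKM + 1 was 0.07 over the 46 genes and -0.02 over all genes tested. Of the 46, 36 had a fold change above 0, or 78.3%, where 40.6% of all genes did. Rescaled to TPM, where each library has the same sum, these were 41 of 46 and 53.4%. Fold changes ran from -0.11 for Cks1b to 0.27 for Psrc1, and the 95% intervals together spanned -0.28 to 0.56. The SE of a member was between 0.06 and 0.14, with a median of 0.08, against a median of 0.10 over all genes. In 5 members all KO values lay above all control values, and in 0 members below, where the background was 3.27% of genes with KO higher and 5.79% with KO lower. The median of the 46 was 0.01 without KO replicate 3, with 24 members above 0. Over all genes tested the median was then -0.03, with 35.2% above 0. The median of the 46 was 0.11 without KO replicate 1 and 0.04 without control replicate 2, against -0.02 over all genes in each. At an unadjusted p under 0.05 there were 0 members without KO replicate 3 and 0 without control replicate 3. The share of all genes at that threshold is not given for these settings.

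**Figure D3:**
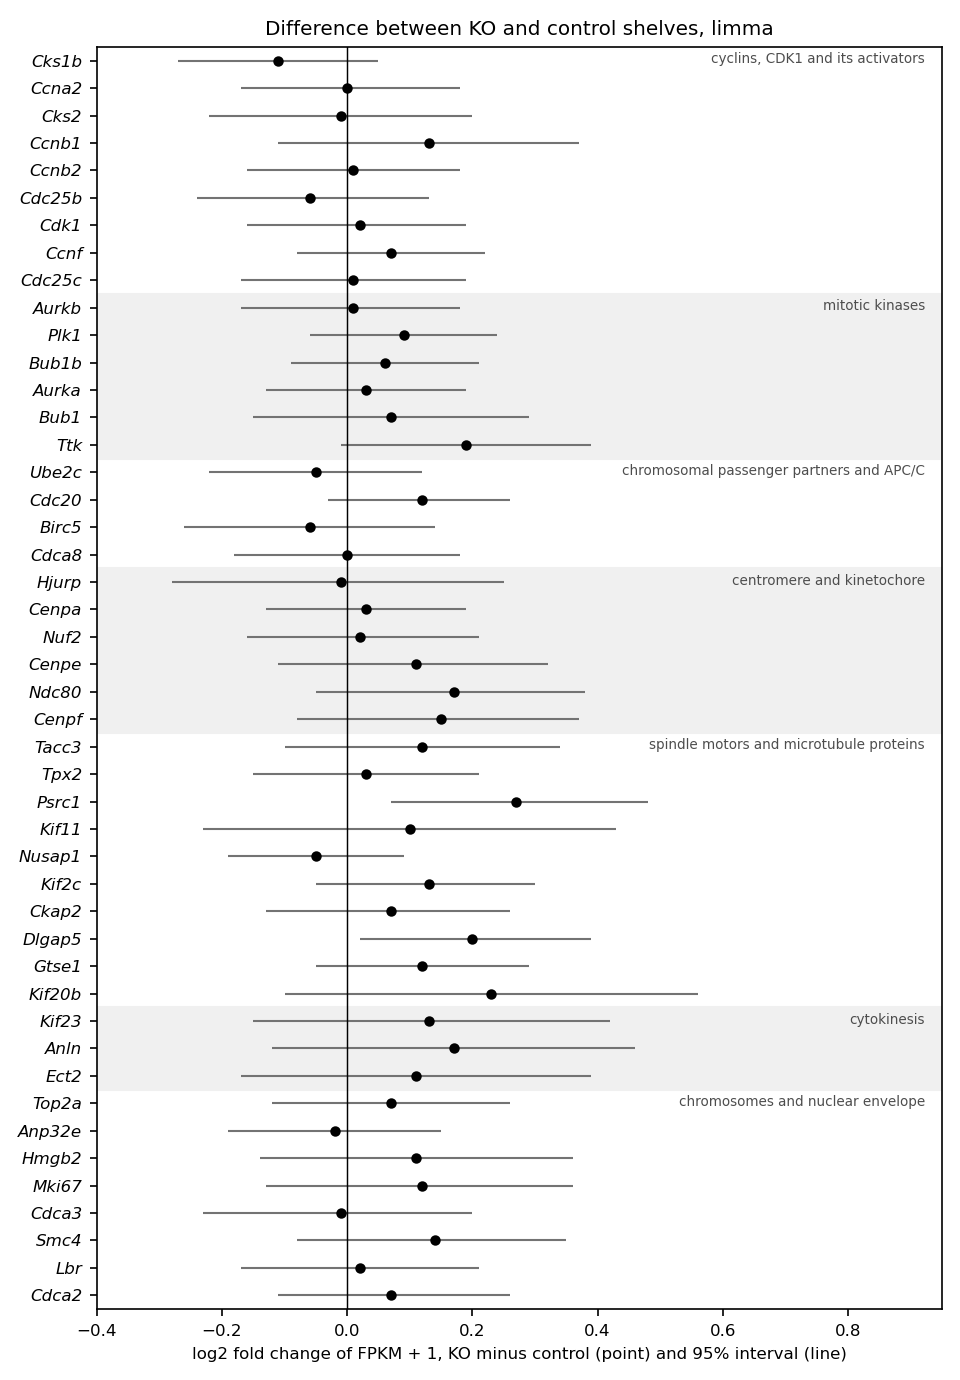
Log2 fold change of FPKM + 1, KO minus control, for each of the 46 genes (point) with its 95% interval from limma (line), grouped by role. All points but those of Psrc1 and Kif20b lie between -0.11 and 0.20, and the intervals of Psrc1 and Dlgap5 are the 2 that do not reach 0.

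Cyclins, Cdk1 and its activators make up 9 of the genes, with 6 fold changes above 0, 3 below and a median of 0.01. Without KO replicate 3 there were 2 above 0, with a median of -0.04. Cdk1, the kinase at the centre of mitotic entry, was at 19.1, 20.9 and 22.7 FPKM in KO replicates 1 to 3, against 19.9, 21.0 and 20.8 FPKM in control replicates 1 to 3. The KO values lay on both sides of the control values, and the log2 fold change was 0.02 ± 0.08 (SE). Ccnb1, cyclin B1, which Cdk1 needs at entry into mitosis, was at 34.9, 35.8 and 44.1 FPKM in KO libraries, against 38.4, 33.5 and 32.6 FPKM in control libraries. KO replicate 3 was the highest of the 6 and control replicate 1 the next, and the groups overlapped (log2 fold change 0.13 ± 0.10 SE, and 0.02 without KO replicate 3). Ccna2, cyclin A2, which acts from the S phase to early mitosis, was at 37.6, 43.7 and 44.5 FPKM in KO libraries, against 43.3, 41.4 and 40.5 FPKM in control libraries. KO replicate 1 was the lowest library and KO replicates 2 and 3 the highest. Cks1b was at 62.7, 68.6 and 69.3 FPKM in KO libraries, against 67.8, 75.0 and 74.4 FPKM in control libraries. Its fold change of -0.11 ± 0.07 (SE) was the lowest of the 46, and the groups overlapped at control replicate 1. Its relative Cks2 averaged 39.0 FPKM over the 6 libraries, with a log2 fold change of -0.01. Ccnb2, cyclin B2, averaged 30.5 FPKM and had a fold change of 0.01. The phosphatases Cdc25b and Cdc25c, which switch Cdk1 on, averaged 22.7 and 11.3 FPKM, with fold changes of -0.06 and 0.01. Ccnf, cyclin F, a subunit of a ubiquitin ligase, averaged 13.4 FPKM with a fold change of 0.07.

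The 6 mitotic kinases had fold changes above 0, with a median of 0.07, but without KO replicate 3 the median was 0.01 and 3 of the 6 lay below 0, Aurkb at -0.06 and Aurka and Bub1 at -0.01 each. Aurkb, the kinase that corrects faulty attachments at the centromere, was at 28.6, 30.0 and 34.0 FPKM in KO replicates 1 to 3, against 31.6, 29.8 and 30.5 FPKM in control replicates 1 to 3. KO libraries were both the lowest and the highest, with a log2 fold change of 0.01 ± 0.08 (SE). Plk1, which acts in centrosome maturation and at entry into mitosis, was at 28.5, 31.4 and 30.7 FPKM in KO libraries, against 28.9, 27.0 and 29.1 FPKM in control libraries. Of its KO libraries, 2 lay above all controls and KO replicate 1 among them (log2 fold change 0.09 ± 0.06 SE). Bub1b, the checkpoint protein BubR1, was at 23.7, 26.1 and 26.1 FPKM in KO libraries, against 24.8, 23.2 and 24.6 FPKM in control libraries. It showed the same arrangement, with a fold change of 0.06 ± 0.07 (SE). Ttk was 1 of the 5 genes without overlap, at 8.30, 8.19 and 9.45 FPKM in KO libraries, against 7.96, 6.98 and 7.45 FPKM in control libraries (log2 fold change 0.19 ± 0.09 SE, unadjusted p = 0.0593 in limma). Aurka, the kinase of the spindle poles, and Bub1, a checkpoint kinase at the kinetochore, averaged 22.4 and 12.6 FPKM, with fold changes of 0.03 and 0.07.

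Partners of Aurkb in the chromosomal passenger complex and genes of the APC/C are 4 in number, with 1 fold change above 0 and a median of -0.03. Ube2c was at 70.6, 83.9 and 77.0 FPKM in KO replicates 1 to 3, against 78.0, 81.9 and 79.2 FPKM in control replicates 1 to 3. KO libraries were the lowest, the highest and the next to lowest, and the log2 fold change was -0.05 ± 0.07 (SE). Cdc20 was at 45.5, 50.8 and 47.1 FPKM in KO libraries, against 44.8, 42.8 and 44.0 FPKM in control libraries. All KO values lay above all control values, the KO mean was 8.89% higher, and the fold change was 0.12 ± 0.06 (SE; unadjusted p = 0.095 in limma). Birc5, the survivin subunit, and Cdca8, the borealin subunit of the passenger complex, averaged 36.9 and 34.7 FPKM. Both had their lowest value in KO replicate 1 and their highest in KO replicate 2, with a fold change of -0.06 for Birc5 and a KO mean of Cdca8 within 0.0805% of the control mean.

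At the centromere and kinetochore, where chromosomes bind the spindle, 5 of 6 fold changes were above 0, with a median of 0.07. Without KO replicate 3 there were 3 above 0, with a median of 0.01. Ndc80, the protein that grips microtubules, was at 8.28, 8.53 and 9.65 FPKM in KO replicates 1 to 3, against 8.52, 7.13 and 7.58 FPKM in control replicates 1 to 3. The groups overlapped through control replicate 1, and the log2 fold change was 0.17 ± 0.09 (SE). Nuf2, its partner in the same complex, averaged 16.7 FPKM with a fold change of 0.02. Hjurp was at 83.7, 73.4 and 92.6 FPKM in KO libraries, against 96.0, 80.3 and 76.0 FPKM in control libraries. Control replicate 1 was the highest library here and KO replicate 2 the lowest, and the fold change was -0.01 ± 0.11 (SE). Cenpa, which Hjurp loads, had a fold change of 0.03, and the large kinetochore proteins Cenpe and Cenpf of 0.11 and 0.15.

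The 10 genes of spindle motors and microtubule proteins held the largest fold changes, with 9 above 0, a median of 0.12 and 3 of the 5 genes without overlap. Without KO replicate 3 there were 6 above 0, with a median of 0.08. Psrc1 (ENSMUSG00000068744), a microtubule-binding protein of the spindle encoded at chr3:108383839-108388231 (GRCm38, plus strand), was at 27.3, 28.3 and 32.1 FPKM in KO replicates 1 to 3, against 23.6, 26.4 and 22.2 FPKM in control replicates 1 to 3. Every KO library lay above every control library, the KO mean was 21.5% higher, and the log2 fold change was 0.27 ± 0.09 (SE; 95% interval 0.07 to 0.48; unadjusted p = 0.0161 and adjusted p = 1.00 in limma). Its unadjusted p in limma was 0.0557 without KO replicate 3 and 0.0622 without control replicate 3. Dlgap5 (ENSMUSG00000037544), or HURP, steadies the fibres that hold chromosomes, and is encoded at chr14:47387779-47418407 (minus strand). It was at 11.2, 11.9 and 12.5 FPKM in KO libraries, against 11.0, 9.51 and 9.93 FPKM in control libraries. Its groups touched closely at KO replicate 1 and control replicate 1 without overlap, and the fold change was 0.20 ± 0.08 (SE; unadjusted p = 0.0355 and adjusted p = 1.00 in limma). With 1 library left out, its unadjusted p in limma lay between 0.0175 and 0.13, and was under 0.05 only without KO replicate 1 or without control replicate 1. Gtse1, a microtubule protein of the G2 phase, was the last without overlap, at 9.43, 10.0 and 9.72 FPKM in KO libraries, against 9.29, 9.12 and 8.25 FPKM in control libraries. Ttk and Gtse1 were named after their values were seen.

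Other spindle genes had groups that overlapped. Kif11, the motor that pushes the spindle poles apart, was at 18.7, 17.1 and 24.0 FPKM in KO replicates 1 to 3, against 21.6, 17 and 16.9 FPKM in control replicates 1 to 3. KO replicate 3 and control replicate 1 were the 2 highest libraries, and the log2 fold change was 0.10 ± 0.14 (SE). Tacc3, which links microtubules of the spindle, was at 30.5, 35.8 and 35.6 FPKM in KO libraries, against 31.5, 34.0 and 28.1 FPKM in control libraries, a fold change of 0.12 ± 0.09 (SE). Kif20b had the second largest fold change of the 46, at 0.23 ± 0.14 (SE), with a KO mean 20.6% higher, but its lowest KO value of 5.44 FPKM lay below 2 of the 3 control values. Kif2c, a kinesin that takes microtubules apart, had a fold change of 0.13. Ckap2 and Tpx2, proteins of the spindle and its poles, had fold changes of 0.07 and 0.03, and Nusap1, which bundles spindle microtubules, of -0.05.

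The 3 cytokinesis genes, which act as the cell pinches into daughters, had fold changes of 0.11 to 0.17. These were 0.01 to 0.06 without KO replicate 3, and 0.21 to 0.26 without control replicate 1. Kif23, a motor of the central spindle, was at 18.7, 17.1 and 21.8 FPKM in KO replicates 1 to 3, against 20.6, 15.9 and 15.9 FPKM in control replicates 1 to 3. KO replicate 3 and control replicate 1 were again the 2 highest libraries, and the log2 fold change was 0.13 ± 0.12 (SE). Anln, the scaffold anillin of the contractile ring, and Ect2, which activates RhoA there, had fold changes of 0.17 ± 0.13 and 0.11 ± 0.12 (SE), and in both KO replicate 3 was the highest library.

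Of 8 genes of chromosomes and the nuclear envelope, 6 had fold changes above 0, with a median of 0.07. Without KO replicate 3 there were again 6, with a median of 0.02. Mki67, whose protein Ki-67 coats mitotic chromosomes and is the common stain for dividing cells, was at 31.2, 28.5 and 36.4 FPKM in KO replicates 1 to 3, against 32.7, 28.1 and 27.3 FPKM in control replicates 1 to 3. KO replicate 3 was the highest and control replicate 1 the next, the groups overlapped, and the log2 fold change was 0.12 ± 0.11 (SE; 95% interval -0.13 to 0.36). It was 0.02 without KO replicate 3 and 0.20 without KO replicate 2. Top2a was at 70.1, 75.7 and 82.9 FPKM in KO libraries, against 77.5, 67.9 and 71.6 FPKM in control libraries. The order of the libraries differed from that of Mki67 in KO replicates 1 and 2 and in control replicates 2 and 3, and the fold change was 0.07 ± 0.08 (SE). Hmgb2 and Smc4, a condensin subunit, had fold changes of 0.11 and 0.14, which were 0.00 for Hmgb2 without control replicate 3 and 0.06 for Smc4 without KO replicate 3. Lbr, the lamin B receptor of the nuclear envelope, had 0.02, Anp32e -0.02, and Cdca2 and Cdca3, which act at exit from and entry into mitosis, 0.07 and -0.01.

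**Figure D4:**
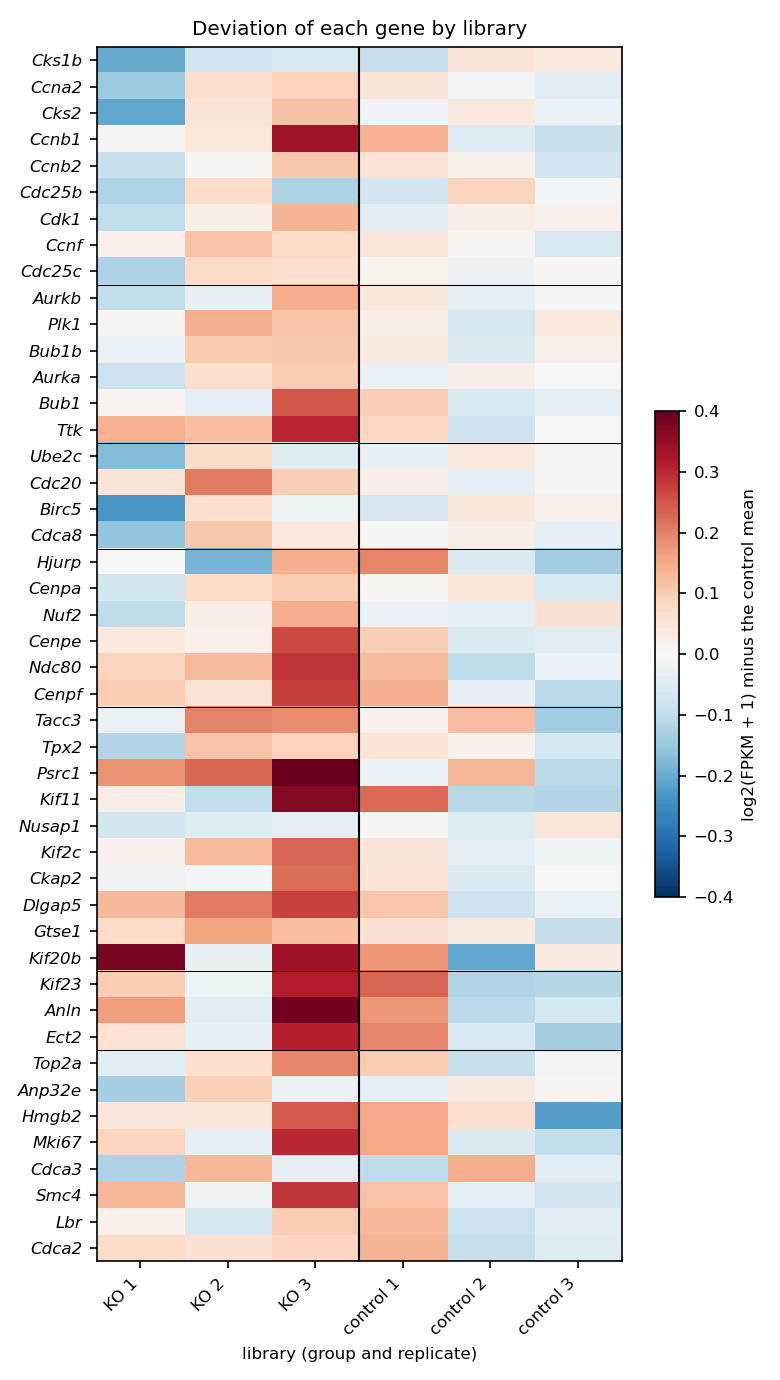
Deviation of log2(FPKM + 1) from the control mean for each of the 46 genes (rows, by role) in each library (columns, KO left of control), red above and blue below. KO replicate 3 is red in 39 of the 46 genes, control replicate 1 in 35, and KO replicate 1 is above the control mean in 24.

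By the medians and sums of the 46 genes, the libraries of 1 genotype differed among themselves by more than the genotypes did. The highest value of a gene fell in KO replicate 3 for 27 of the 46 genes, or 58.7%, where 21.7% of all genes tested had their highest value. KO replicate 1 held the highest value of 1 gene and the lowest of 17, or 37.0%, against 20.7% of all genes. KO replicate 3 stood above all 3 control libraries in 36 of the 46 genes, or 78.3%, against 27.8% of all genes tested. KO replicate 2 did so in 21, or 45.7%, against 21.3% of all genes, and KO replicate 1 in 7, or 15.2%, against 19.0%. Taken pair by pair, KO replicate 1 stood above control replicates 1, 2 and 3 in 7, 26 and 24 members (15.2%, 56.5% and 52.2%). Of all genes, 40.2%, 44.0% and 46.5% did. For KO replicate 2 these were 56.5%, 84.8% and 80.4% of members, against 44.0%, 37.6% and 43.4% of all genes. For KO replicate 3 they were 87.0% of members in each pair, against 49.1%, 48.7% and 51.5%. The median deviation of the 46 genes from the control mean was 0.00, 0.06 and 0.14 in KO replicates 1 to 3, and 0.05, -0.04 and -0.03 in control replicates 1 to 3. Over all genes tested the same medians lay between -0.04 and 0.00. The summed level of the 46 genes was 1252, 1340 and 1421 FPKM in KO replicates 1 to 3, against 1341, 1294 and 1259 FPKM in control replicates 1 to 3. KO replicate 1 thus had the lowest sum of the 6 libraries and KO replicate 3 the highest. These sums are not scaled to the FPKM total of each library. The totals were 384979, 424340 and 395541 FPKM in KO replicates 1 to 3, against 399240, 424993 and 406838 FPKM in control replicates 1 to 3. KO replicate 1 also had the lowest total, so its lowest sum is not a rank by share of the library.

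Gene length moved with this pattern. The 46 genes were split at a median exonic length of 4520 bases, by the GENCODE annotation of GRCm38. The 23 longer genes had a median deviation of 0.04, 0.02 and 0.26 in KO replicates 1 to 3, and of 0.11, -0.06 and -0.05 in control replicates 1 to 3. The 23 shorter genes had -0.07, 0.07 and 0.11 in KO libraries and 0.03, 0.03 and -0.01 in control libraries. Both sets thus had their highest median in KO replicate 3. Control replicate 1 came next for the longer genes, and the shorter ones were lowest in KO replicate 1. In each library, the medians of all tested genes of like length differed between longer and shorter genes in the same direction as those of the members. Of the members, 65.2% of the longer and 52.2% of the shorter were highest in KO replicate 3. In control replicate 1 these were 3 of the 23 longer and 0 of the 23 shorter members. Among 6184 tested genes longer than 4520 bases and within the members' range of 692 to 15433 bases, 29.2% were highest in KO replicate 3 and 23.3% in control replicate 1, against 15.4% and 11.2% of 7171 shorter ones. Between genotypes, the median log2 fold change was 0.10 for the longer members, with 21 of 23 above 0, and 0.03 for the shorter members, with 15 of 23 above 0. It was -0.01 and -0.04 for longer and shorter tested genes of like length. The part of length in the members' differences was not tested.

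**Figure D5:**
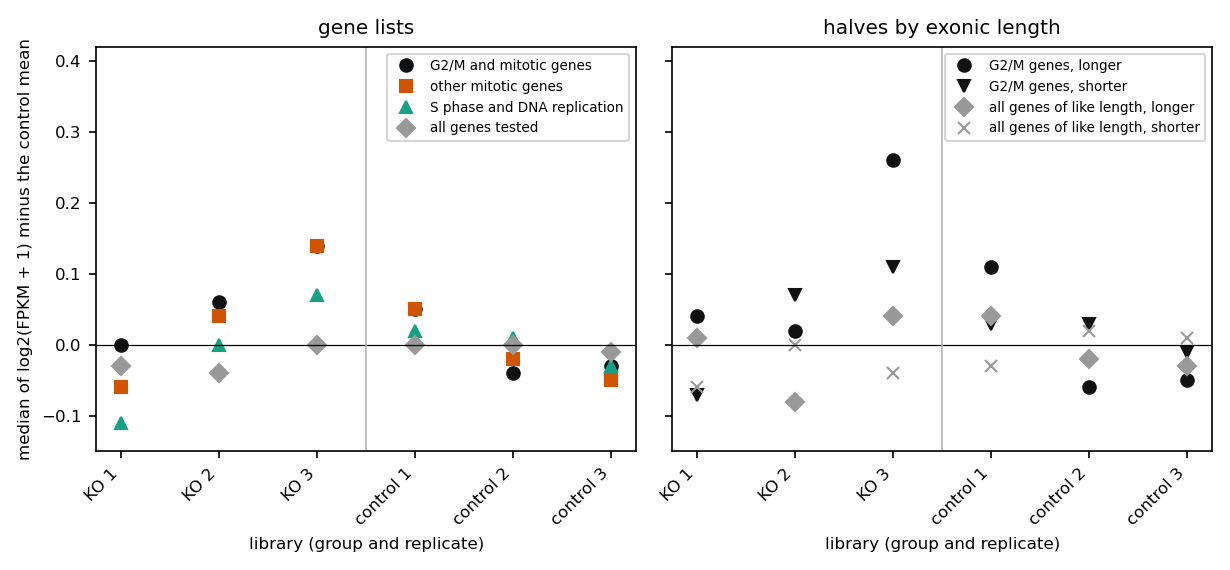
Median of log2(FPKM + 1) minus the control mean in each library, KO left of control. The left panel shows the 46 genes, other mitotic genes, S phase genes and all genes tested, with the 46 genes at 0.14 in KO replicate 3. The right panel splits the 46 genes and all genes of like length at 4520 bases, with the longer G2/M genes at 0.26 in KO replicate 3.

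Other genes of the cell cycle were read from lists set without regard to how these genes moved, though earlier results of the data were known. At an unadjusted p under 0.05, limma gave 0 genes of the other mitotic, APC/C, S phase and G1 lists, 1 of the brakes and 2 of the transcription factors, all 3 lower in KO. Of 73 other mitotic genes, 0 were called, 54 had a fold change above 0 and the median was 0.04. The gene of smallest p was Kif20a, a kinesin of cytokinesis, at 21.3 ± 1.40 FPKM in KO and 18.8 ± 1.39 FPKM in control libraries (SD, n = 3 each). Next was the centromere gene Cenpn, at 10.9 ± 1.60 FPKM in KO and 12.8 ± 0.319 FPKM in control libraries. The medians of these 73 genes by library were -0.06, 0.04 and 0.14 in KO replicates 1 to 3, and 0.05, -0.02 and -0.05 in control replicates 1 to 3, with KO replicate 3 the highest library in both lists. Subunits of the APC/C and genes of mitotic exit, 21 in all, had a median of 0.00 with 10 above 0, and the 2 of smallest p were Cdc26 and Anapc5, with fold changes of -0.10 and -0.09.

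Of 48 S phase genes, 0 were called, 16 had a fold change above 0, and the median was -0.02, as over all genes. Their medians by library were -0.11, 0.00 and 0.07 in KO replicates 1 to 3 and 0.02, 0.01 and -0.03 in control replicates 1 to 3. KO replicate 1 was thus the lowest and KO replicate 3 the highest, as in the 73 other mitotic genes. By the same medians KO replicate 3 was also the highest for the 46 genes, but control replicate 2 was their lowest, at -0.04. Pola2, of the DNA polymerase alpha-primase complex, and Gins3, of the replicative helicase, had the smallest p, with fold changes of -0.09 and -0.12. For 15 tested brakes on entry into mitosis and Cdk inhibitors the median was 0.03, with 8 above 0. Cdkn2c, the inhibitor p18 of the G1 kinases, was at 5.73, 5.66 and 6.07 FPKM in KO replicates 1 to 3, against 6.30, 7.26 and 7.41 FPKM in control replicates 1 to 3. Every KO value lay below every control value, with a log2 fold change of -0.23 ± 0.09 (SE; unadjusted p = 0.0299 and adjusted p = 1.00 in limma). Btg1, an antiproliferative factor, had a fold change of -0.12.

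Transcription factors that act on these promoters, the DREAM, MuvB, E2F and NF-Y proteins, were tested in 22 genes, of which 8 had a fold change above 0, with a median of -0.03. E2f1, an activator of S phase genes, was at 15, 15.6 and 16.6 FPKM in KO replicates 1 to 3, against 18.5, 18.3 and 17.5 FPKM in control replicates 1 to 3. Its groups did not overlap, and the log2 fold change was -0.19 ± 0.07 (SE; unadjusted p = 0.0193 and adjusted p = 1.00 in limma). Tfdp2, a partner of E2F proteins, had a fold change of -0.41 ± 0.15 (SE), but control replicate 1, at 8.42 FPKM, lay within the KO range of 7.98 to 8.54 FPKM. The 8 G1 cyclins and their kinases, with Myc and Mycn, had a median of 0.03 and 0 calls, and the smallest p were those of Myc and Cdk6, with fold changes of 0.16 and 0.09.

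Markers of other cells in the shelf differed between libraries too. The 8 leukocyte markers, of which 7 were tested, summed to 70.5 to 93.1 FPKM in KO and 46 to 58.7 FPKM in control libraries, and none was at 0 in any library. The 9 cartilage markers summed to 567, 103 and 118 FPKM in KO replicates 1 to 3, against 254, 217 and 455 FPKM in control replicates 1 to 3, so KO replicates 2 and 3 were low where KO replicate 1 was the highest. The 10 skeletal muscle markers summed to 305 to 446 FPKM in KO and 301 to 523 FPKM in control libraries. The 11 epithelial markers summed to 359 to 642 FPKM in KO and 417 to 533 FPKM in control libraries. The 7 endothelial markers summed to 101 to 123 FPKM in KO and 124 to 141 FPKM in control libraries. Sums for bone were 276 to 487 FPKM in KO and 369.9 to 615 FPKM in control libraries, and for erythroid cells 9551 to 21816 FPKM in KO and 9046 to 16822 FPKM in control libraries. Neuronal markers summed to 28.3 to 59.8 FPKM in KO and 37.1 to 70.5 FPKM in control libraries, and glial markers to 18.5 to 39.0 FPKM in KO and 20.9 to 24.8 FPKM in control libraries. The part of these cells in the levels of mitotic genes was not tested.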

How the data were processed

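RNA of palatal shelves was sequenced in 3 KO and 3 control libraries. The authors deposited FPKM, by the name of the table, which scale fragments to the length of a gene and the size of a library. The submitters' processing notes name the build mm10 and version 1.5.2 of DESeq2. Aligner, counter, annotation release and strand setting: not given in the sources used here. Depth is unknown, and values above 0 began at 0.100 to 0.118 FPKM in the libraries.

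Groups came from the titles and columns from the library names. Libraries correlated at 0.982 to 0.993 across tested genes, and no pair was identical. GENCODE M21 on GRCm38 gave symbols for 50876 of 55631 IDs, and exonic lengths as the union of exons. The test was limma (version 3.58.1, R version 4.3.3) on log2(FPKM + 1), for the 14714 genes averaging 1 FPKM or more, with 1 term for genotype and a trended eBayes. It was two-sided, with Benjamini-Hochberg adjustment over those genes at a threshold of 0.05. Fold changes on this scale are too small for low genes. The model was tested on simulated data.

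The members and lists were chosen with earlier results of these data known. Values per library are given for members at an unadjusted p under 0.05, the member of highest mean in each role group, the largest and smallest fold change, and 11 fixed genes. In each cell cycle list the 2 genes of smallest p are named, and cell type markers are given as sums. In the titles the groups share replicate numbers, which no label explains.

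Of 42 promoter windows, 26 had the first 30 bases after the start within a GENCODE transcript of the same gene, and 0 in reverse. Alternatives were other pseudocounts, filters and scalings, eBayes settings, library weights, a replicate block and each library left out.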

Additional observations from a re-analysis of the deposited data

How the results depend on the processing

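None of the 46 genes passed under any of 18 alternatives in limma, and between 0 and 8 had an unadjusted p under 0.05, with 8 under library weights. The share of all genes at that unadjusted threshold is not given for the alternatives, so these counts cannot be set against it. The median log2 fold change of the 46, 0.07, ran from 0.01 without KO replicate 3 to 0.11 without KO replicate 1. Between 24 and 42 of the 46 fold changes were above 0, against 35.2% to 53.4% of all genes tested. With a replicate block, which pairs the numbers of the titles, the median stayed at 0.07 and 0 members passed. Deviations of same-numbered libraries from their group means had r = 0.019, 0.305 and -0.241 across genes for numbers 1 to 3. For libraries of unlike number r lay between -0.284 and 0.314. With so few libraries in a group these values cannot tell whether the numbers pair embryos. The numbers were not taken to do so, since no label explains them. Over all genes, limma called 49, and 42 with the block. It called 24 with a filter at a mean of 5 FPKM, where 9923 genes were tested, 69 with no filter, where 25387 were tested, 67 with a filter at a mean of 0.1 FPKM, 67 with library weights, 48 to 53 under the other settings and 33 to 50 with 1 library left out.

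The sign was the same under every alternative for 26 of the 46 genes, and for the other 20 it turned under some, the cause of which was not tested. With library weights it was -0.06 for Ccna2, -0.05 for Cdk1 and Cdc25c, -0.04 for Tpx2 and Aurka, -0.03 for Ccnb2 and Cenpa, -0.02 for Nuf2 and Aurkb and 0.06 for Hjurp. With quantile normalization it was 0.00 for Anp32e, 0.01 for Cks2 and 0.02 for Hjurp, Cdca3 and Cdca8. With median-of-ratios scaling it was 0.00 for Cks2 and Hjurp and 0.01 for Cdca3 and Cdca8. With rescaling to TPM it was 0.01 for Anp32e, 0.02 for Cks2, Hjurp and Cdca3 and 0.03 for Cdca8. With 1 library left out, the fold change ranged from -0.04 to 0.08 for Cdk1, -0.11 to 0.01 for Ube2c, -0.13 to 0.02 for Birc5, -0.01 to 0.10 for Tpx2, -0.08 to 0.08 for Cks2, -0.04 to 0.08 for Nuf2, -0.04 to 0.06 for Ccnb2, -0.04 to 0.08 for Ccna2, -0.03 to 0.07 for Cdc25c and -0.01 to 0.08 for Aurka. It ranged from -0.06 to 0.06 for Aurkb, -0.01 to 0.13 for Bub1, -0.04 to 0.21 for Kif11, 0.00 to 0.09 for Cenpa, -0.09 to 0.08 for Hjurp, -0.08 to 0.06 for Cdca3, -0.06 to 0.07 for Cdca8, -0.01 to 0.11 for Ckap2, -0.02 to 0.09 for Lbr and -0.08 to 0.03 for Anp32e. With depth unknown, no counting error could be given for any value.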
